A study of Mus musculus with 6 samples.

Results

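The 58 genes described here encode the machinery of mitosis: the mitotic cyclins and their kinase, the spindle and its motors, the kinetochore, the condensins and the proteins of anaphase and cytokinesis. They were taken by symbol from a deposited table of raw RNA sequencing counts, which holds 22966 genes, and all 58 were present. All 58 passed the filter on low counts that left 14795 genes for testing, and each had at least 22 counts in every library. The samples are 6 libraries of primary hepatic stellate cells, the vitamin A storing pericytes of the liver that turn into matrix-producing myofibroblasts after injury. They came from mice treated with carbon tetrachloride (CCl4), a liver toxin used to cause fibrosis. The series concerns butyrylcholinesterase, encoded by Bche, and its deletion in hepatocytes. In titles, 3 libraries are called flox and 3 Cre, and the groups rest on these words alone. This is because the genotype entry is the same for all 6 (BucheHep), the housing text names BucheΔHep mice throughout, and the CCl4 treatment is shared. All 6 titles also hold the tag S2W, which was not interpreted here. Of the Cre driver, the animals' age and sex, the dose and duration of CCl4, any culture of the cells and any pooling of animals, none is given in the sources used here. The labels do not tie the libraries to separate mice, so the p-values measure the spread between these libraries, which may be technical.

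A dividing cell makes most of these mRNAs in waves that peak in G2 and mitosis and lets them fall again in G1 or on leaving the cycle. Cyclin B and CDK1 start mitosis, microtubules from the spindle attach to chromosomes at the kinetochore, and a checkpoint holds back the anaphase-promoting complex until the attachments are made. In a healthy liver stellate cells divide little, and after injury they re-enter the cycle as they become activated. Many mitotic genes are known targets of the DREAM complex and of MuvB with B-MYB and FOXM1, which act through a promoter element called the cell cycle genes homology region (CHR), often beside CCAAT boxes bound by NF-Y.

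Libraries held 37273142 to 41006722 counts, so depth was even. Bche itself had 17, 6 and 21 counts in flox 1 to 3 and 15, 8 and 2 counts in Cre 1 to 3, too few to check the labels in cells that are not the targeted ones. Stellate markers were present in every library, with summed levels of 712 to 2448 CPM (normalised counts, scaled to library size) in flox and 1267 to 2095 CPM in Cre over 12 genes. Markers of other cells were present too, and 13 of 14 macrophage and Kupffer cell markers were lower in Cre. Their sum was 17256, 22110 and 7854 CPM in flox 1 to 3 and 2405, 2402 and 2830 CPM in Cre 1 to 3. In every library this was above the stellate sum (2448, 1181 and 712 CPM in flox, 1267, 2095 and 1986 CPM in Cre). Endothelial sums were above the stellate sums in flox 3 and in all Cre libraries, and below them in flox 1 and flox 2. Sums over different marker genes do not give shares of cells. The sum of 8 mesothelial markers was 261, 176 and 237 CPM in flox and 706, 824 and 202 CPM in Cre, so Cre 3 lay in the flox range there. Hepatocyte (176 to 636 CPM in flox, 66.1 to 419 CPM in Cre), endothelial (1175 to 3599 and 1882 to 2999 CPM), T and NK cell (6.34 to 20.1 and 4.92 to 11.7 CPM) and cholangiocyte sums (108 to 1877 and 234 to 315 CPM) overlapped between the groups. Dendritic cell sums (74.0 to 169 CPM in flox, 37.6 to 74.9 CPM in Cre) overlapped narrowly. B cell (46.7 to 189 CPM in flox, 12.4 to 15.1 CPM in Cre) and neutrophil sums (90.0 to 142 and 15.1 to 51.8 CPM) were lower in all Cre libraries, and Ly6g and Elane, which define neutrophils and their precursors, were at 0 in all 6. Single markers were less uniform: of 5 B cell markers tested, 1 was called higher and 1 lower. Only 2 neutrophil markers could be tested, of which 1 was called lower. Of all genes tested, 6.35% were called higher and 8.94% lower. The part of these cell types in the mitotic values was not tested. In bulk RNA a change in the number of dividing cells and a change in mRNA per dividing cell cannot be told apart.

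Mitotic genes were higher in the Cre libraries across every step of cell division. Of the 58 genes, 50 passed the test as higher (edgeR, Benjamini-Hochberg adjusted p from 0.0237 to 0.0498) and 0 as lower. Over all 14795 genes tested, 6.35% were called higher and 8.94% lower. The median log2 fold change of Cre over flox was 1.72 over the 58 genes, or 3.30-fold, against 0.01 over all genes tested. All 50 called genes were higher by at least 1 on the log2 scale, a change that 3.79% of all genes showed with a call, and 12 of them had a log2 fold change of at least 2. Their values ran from 1.12 for the condensin gene Smc4 to 2.50 for the kinetochore scaffold gene Knl1. In 54 of the 58 genes every Cre library lay above every flox library, a pattern found in 19.6% of all genes tested. In 1 gene, Pttg1, every Cre library lay below every flox library (20% of all genes), and 3 genes, Cenpa, Cenpk and Incenp, overlapped. At an unadjusted p under 0.05, 55 of the 58 genes were higher and Pttg1 was lower, against 34.8% of all genes in either direction.

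**Figure D1:**
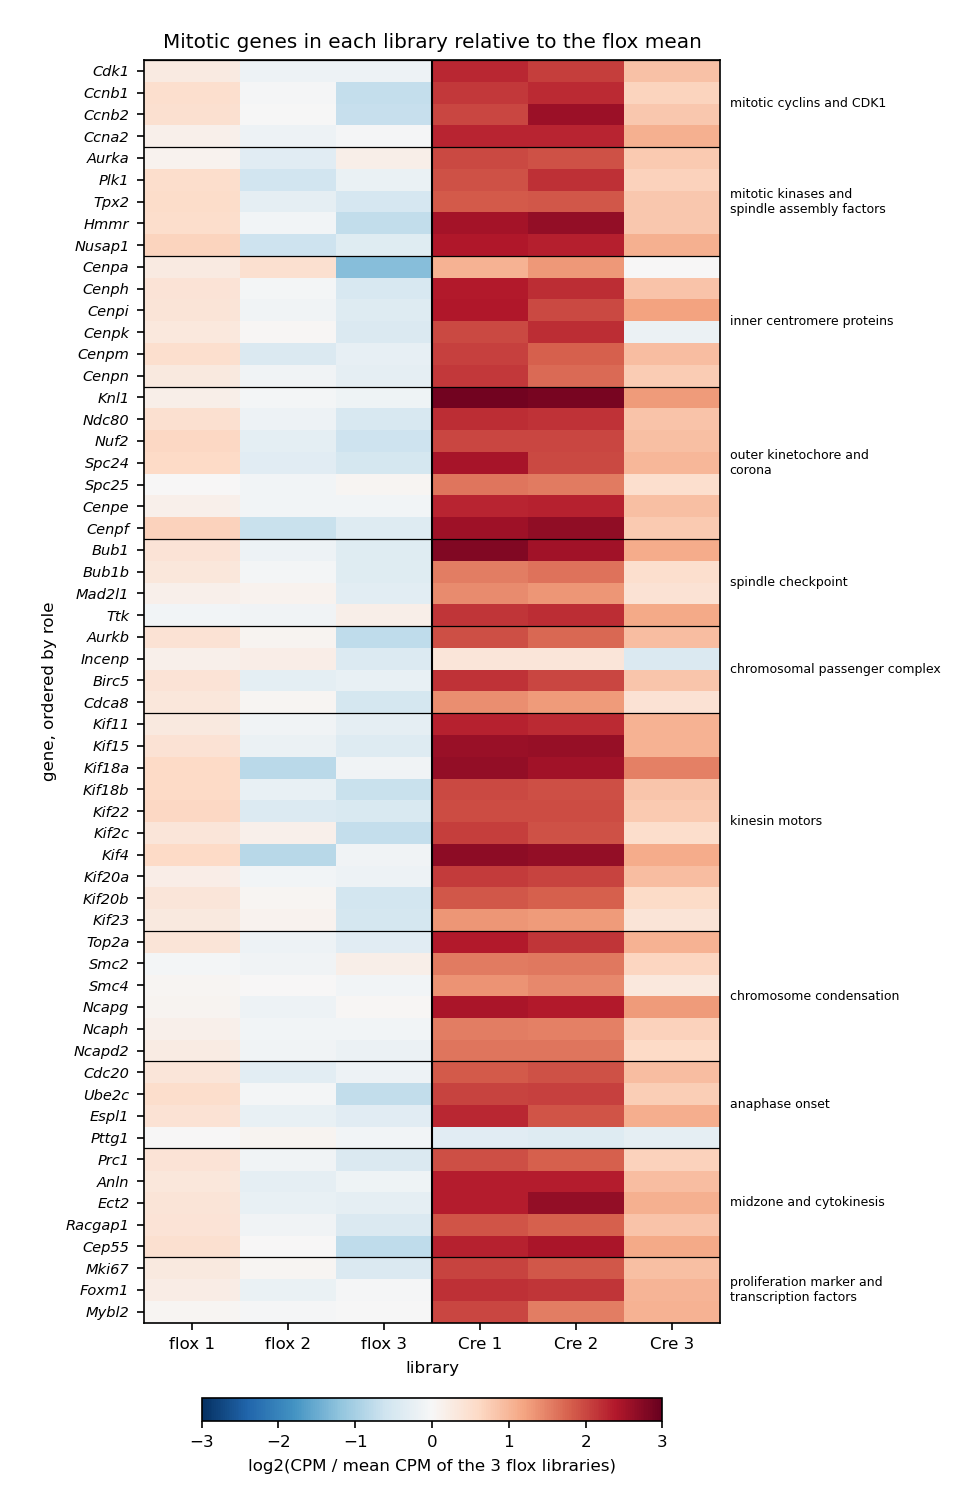
Level of each of the 58 genes (vertical axis, ordered by role) in each of the 6 libraries (horizontal axis), as the log2 of its normalised CPM over its mean in the 3 flox libraries. Cre 1 and Cre 2 are high for nearly every gene, Cre 3 lies between them and flox, and Pttg1 and Incenp stand out as flat.

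**Figure D2:**
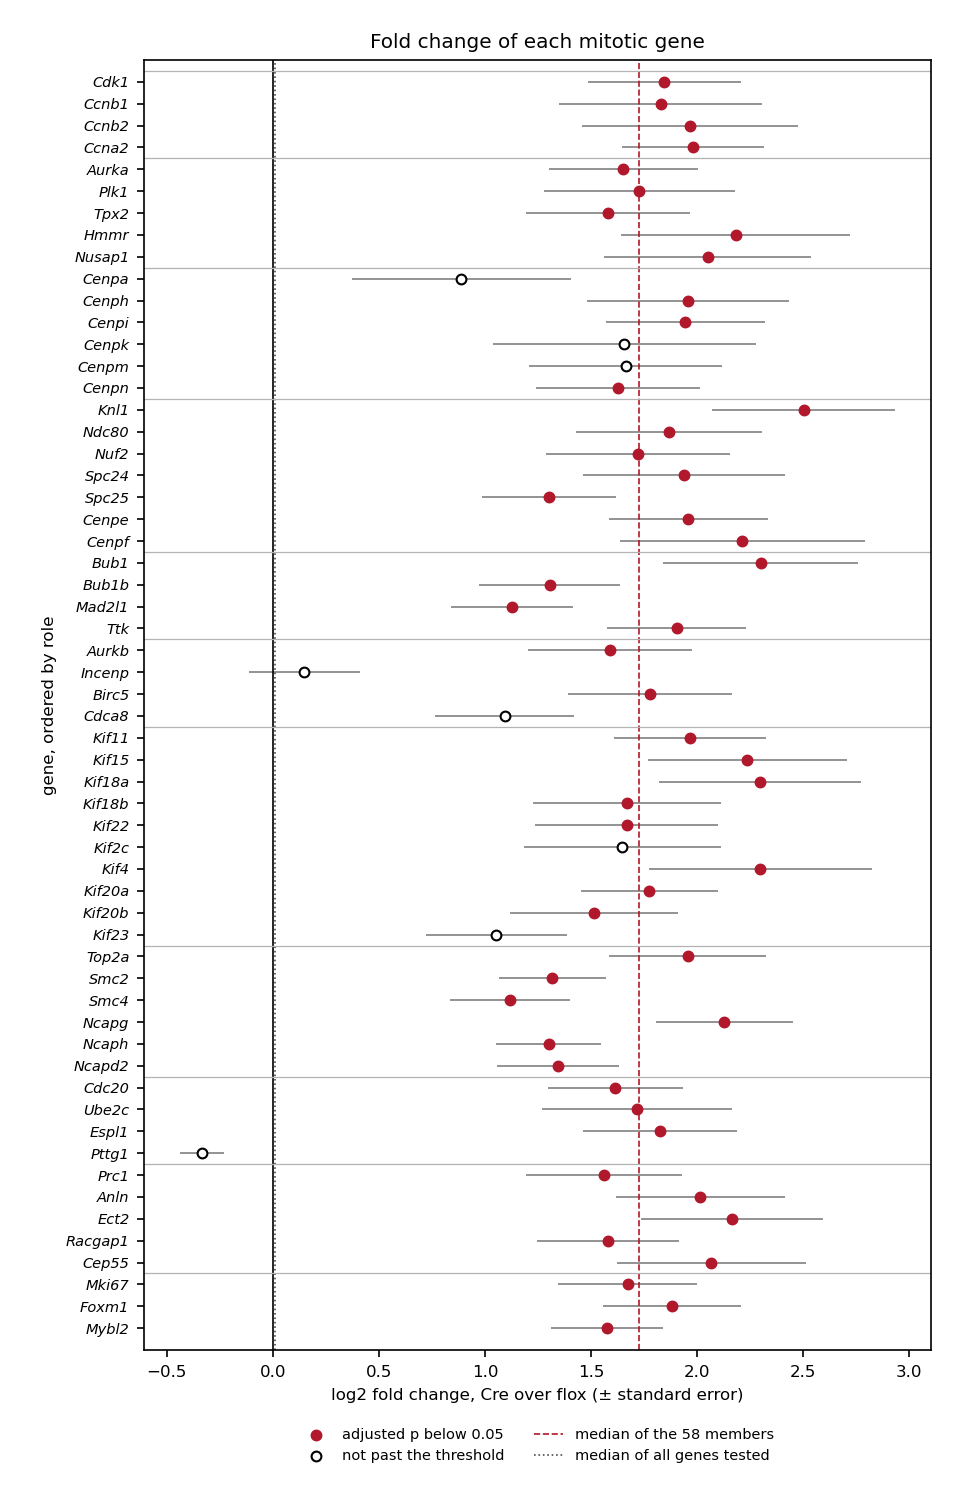
Log2 fold change of Cre over flox for each gene (points, horizontal axis) with its standard error (bars), grouped by role on the vertical axis. The 50 genes past the test lie between 1.12 and 2.50, and Pttg1 is the only gene below 0.

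These calls lie close to the threshold, and the libraries behind them matter. With flox 1, flox 2, Cre 1 or Cre 2 left out, edgeR called 0 of the 58 genes and 0 genes in the whole table, while 54 of the 58 were higher at an unadjusted p under 0.05 each time (of all genes in either direction, 24.4%, 23.4%, 23.5% and 26.1%) and the median log2 fold change ran from 1.57 to 2.02. Without flox 3 it called 41 higher (16% of all genes) and Pttg1 lower (18.8%), and without Cre 3 it called 55 higher (5.04%). DESeq2 called 55 higher and Pttg1 lower with all libraries (13.4% and 15.9% of all genes), and 48 to 55 higher with 1 library left out (5.72% to 21% of all genes). The limma-voom test called 11 higher (3.91% of all genes), with 54 higher at an unadjusted p under 0.05.

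The libraries of a group were not alike. Median log2 levels of the 58 genes, relative to the flox mean, were 0.36, -0.10 and -0.35 in flox 1 to 3 and 2.06, 1.996 and 0.85 in Cre 1 to 3. Summed over the genes, levels were 679.9, 538.8 and 469.9 CPM in flox and 2018, 1953 and 903 CPM in Cre. Cre 1 and Cre 2 were nearly equal, and Cre 3 was lower but still above all 3 flox libraries. It was the lowest Cre library in 57 of the 58 genes (98.3%), which holds for 37.3% of all genes tested. Leaving aside Pttg1, its level was 20.7% to 59.8% of the mean of Cre 1 and Cre 2 (median over all 58 genes 44.7%), while the median over all genes tested was 99.4%. Even so, Cre 3 was above the highest flox library in 54 of the 58 genes, against 31.9% of all genes. Among the flox libraries, flox 1 was the highest in 51 genes (87.9%, against 24.1% of all genes) and flox 3 the lowest in 40 (69.0%, against 44.9%). The mesothelial sum was also lower in Cre 3 than in Cre 1 and Cre 2 (sums above), though 0 of the 8 markers were called. Other sums were highest in Cre 3 among the Cre libraries: macrophage (2405, 2402 and 2830 CPM in Cre 1 to 3), T and NK cell (5.61, 4.92 and 11.7 CPM), neutrophil (35.2, 15.1 and 51.8 CPM), hepatocyte and cholangiocyte. The part of any of these in the difference was not tested.

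The promoters of these genes share letters that were not themselves used to choose them. Many mitotic genes are known CHR targets, however, so the shares below are not independent of the choice of genes. RefSeq promoters on GRCm38.p6, each from 250 bases before to 50 bases after a gene's start, were matched by symbol for 50 of the 58 genes (55 promoters, since some genes have more than 1 listed start). Aurkb, Ccna2, Foxm1, Incenp, Kif20a, Smc4, Spc24 and Tpx2 had no match by symbol. The CHR motif TTTGAA, read on both strands, was in 38 of the 55 promoters (69.1%), against 17.9% of all 32851 promoters and 12.6% of the 14676 promoters of genes tested. The NF-Y motif CCAAT was in 39 (70.9%), against 37.4% and 37.2%. Both stood together in 30 promoters (54.5%), against 6.95% and 4.98%. Within 50 bases on either side of the start, TTTGAA was in 35 promoters (63.6%), against 4.94% and 3.22%. Neither motif contains the other. Both were also common in other mitotic lists: TTTGAA was in 41.4% of the promoters of other kinetochore and centromere genes, 45.5% of other spindle and cytokinesis genes and 41.7% of other entry and exit regulators, and CCAAT in 62.1%, 77.3% and 75%. In promoters of DNA replication genes TTTGAA was in 14.3% and CCAAT in 60.7%. In genes called higher that are not among the 58, TTTGAA was in 16.4% of 872 promoters, and in genes called lower in 14.2% of 1399 promoters. The variant TTTAAA was in 16.4% of the 55 promoters and 13.2% of all. E2F-type motifs, which were TTTGGCG, its variant TTTCCCG or its variant TTTCGCG, on both strands, were in 18.2%, against 5.58% of all promoters and 46.4% of 28 promoters of DNA replication genes. Median GC content was 59.0% in these promoters, 52.7% in all and 60.0% in those of genes tested. A match describes letters and shows neither a bound site nor a cause.

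The 100 bases before the RefSeq start are printed for 5 genes that hold both motifs there, and for Mybl2, which holds neither, to show how the letters are placed in that stretch. Bases after the start are not shown, although the first 25 of them held 16 of the 49 TTTGAA matches, the most of any 25-base bin. Each reads 5′ to 3′ on the gene's own strand, and capitals mark TTTGAA and CCAAT, or TTCAAA and ATTGG where the motif is on the other strand. The positions are Cdk1 chr10:69352913-69353012 (minus strand), Cdc20 chr4:118437344-118437443 (minus), Espl1 chr15:102296193-102296292 (plus), Kif11 chr19:37376282-37376381 (plus), Top2a chr11:99024190-99024289 (minus) and Mybl2 chr2:163054535-163054634 (plus).
Cdk1: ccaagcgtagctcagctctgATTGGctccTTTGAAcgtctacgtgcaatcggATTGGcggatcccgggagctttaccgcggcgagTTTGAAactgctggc
Cdc20: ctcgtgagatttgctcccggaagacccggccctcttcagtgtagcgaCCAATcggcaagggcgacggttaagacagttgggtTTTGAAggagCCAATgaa
Espl1: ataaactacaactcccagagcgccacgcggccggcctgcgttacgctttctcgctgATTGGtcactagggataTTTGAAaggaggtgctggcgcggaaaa
Kif11: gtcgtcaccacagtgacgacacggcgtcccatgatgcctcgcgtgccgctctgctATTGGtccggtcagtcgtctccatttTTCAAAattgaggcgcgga
Top2a: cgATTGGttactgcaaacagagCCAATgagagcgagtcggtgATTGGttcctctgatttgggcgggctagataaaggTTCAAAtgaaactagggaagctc
Mybl2: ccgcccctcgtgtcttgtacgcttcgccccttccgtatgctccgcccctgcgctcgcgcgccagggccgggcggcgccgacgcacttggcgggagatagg

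In Cdk1, Cdc20 and Top2a CCAAT occurs more than once in the stretch shown, and in all 5 genes a TTTGAA lies within the last 50 bases before the start. Of the 35 matched genes with TTTGAA, 31 were called higher and 4 were not (Cdca8, Cenpa, Kif23 and Kif2c). Of the 15 without it, 12 were called higher (Birc5, Bub1, Ccnb1, Cenpe, Cenph, Cenpi, Kif18a, Mad2l1, Mybl2, Ncaph, Nuf2 and Nusap1) and 3 were not (Cenpk, Cenpm and Pttg1). Most genes were thus called higher with and without the motif, as were 50 of all 58, against 6.35% of all genes tested. A link between motif and call was not tested.

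**Figure D3:**
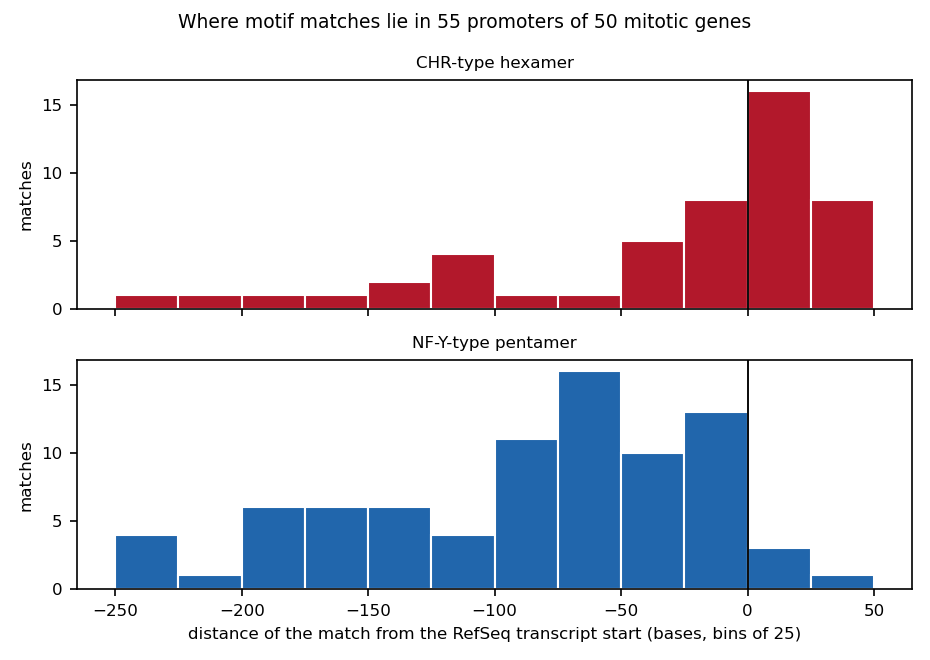
Number of matches (vertical axis) of the CHR-type hexamer and of the NF-Y-type pentamer in 25-base bins of distance from the RefSeq start (horizontal axis, in bases) over the 55 promoters, with matches shared by neighbouring starts counted for each. Of 49 hexamer matches, 37 lie within 50 bases of the start, and the pentamer peaks at 16 matches 75 to 50 bases before it.

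Cyclins and CDK1, the kinase that drives entry into mitosis, were all higher (4 of 4, median log2 fold change 1.91). Cdk1 (chromosome 10, 69335146 to 69352938, GRCm38) was at 12.6, 9.48 and 9.38 CPM in flox 1 to 3 and at 49.9, 44.0 and 19.2 CPM in Cre 1 to 3. Its lowest Cre value, in Cre 3, was above all flox values (log2 fold change 1.85 ± 0.36 SE, edgeR adjusted p = 0.0267). Ccna2, whose cyclin A2 acts in S phase and at the start of mitosis, was at 12.9, 10.4 and 11.3 CPM in flox and at 56.2, 56.2 and 24.1 CPM in Cre. Here the flox values were close together and every Cre value was above them (1.98 ± 0.33, edgeR adjusted p = 0.0241). The B-type cyclin genes Ccnb1 (1.83 ± 0.48, edgeR adjusted p = 0.0484) and Ccnb2 (1.97 ± 0.51, edgeR adjusted p = 0.0471) had changes of like size and larger errors, and their counts are uncertain because each has a named pseudogene copy. Ccna2 shares exons with Exosc9, which here and below means that exon positions overlap, on either strand.

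The kinases and assembly factors that build the spindle were higher in 5 of 5 genes (median 1.73, range 1.58 to 2.18). Aurka, the kinase of the spindle poles, was at 5.23, 3.82 and 5.45 CPM in flox and at 19.2, 18.1 and 8.34 CPM in Cre. No Cre value reached down to the flox values (1.65 ± 0.35, edgeR adjusted p = 0.0312). Tpx2, which activates and targets that kinase, changed by 1.58 ± 0.39 (edgeR adjusted p = 0.0417). Plk1, the polo kinase of centrosome maturation and mitotic exit, changed by 1.73 ± 0.45 (edgeR adjusted p = 0.0476). The microtubule-binding factors Hmmr (2.18 ± 0.54, edgeR adjusted p = 0.0429) and Nusap1 (2.05 ± 0.49, edgeR adjusted p = 0.0397) had the largest changes of this role. Exons of Nusap1 overlap those of Oip5, which lies on the opposite strand.

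At the centromere, the chromatin platform on which the kinetochore is built, 3 of 6 genes passed (median 1.66). Cenpi (chromosome X, 134308084 to 134362639) was at 3.47, 2.47 and 2.04 CPM in flox and at 14.1, 10.6 and 6.11 CPM in Cre. The groups did not overlap (1.95 ± 0.37, edgeR adjusted p = 0.0264), and Cenph (1.96 ± 0.48, edgeR adjusted p = 0.0415) and Cenpn (1.63 ± 0.39, edgeR adjusted p = 0.0395) passed as well. Cenpa, the histone H3 variant that marks the centromere, was at 6.75, 7.82 and 2.31 CPM in flox and at 11.6, 13.9 and 5.70 CPM in Cre. Cre 3 fell inside its flox range, and the difference of 0.89 ± 0.52 did not pass (edgeR adjusted p = 0.267). Cenpk was at 1.68, 1.38 and 0.995 CPM in flox and at 5.36, 6.25 and 1.20 CPM in Cre, again with Cre 3 inside the flox range (1.66 ± 0.62, edgeR adjusted p = 0.112), and it shares exons with Ppwd1. Cenpm was at 1.21, 0.632 and 0.721 CPM in flox and at 3.55, 2.97 and 1.61 CPM in Cre, without overlap and just outside the threshold (1.66 ± 0.46, edgeR adjusted p = 0.0540).

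All 7 genes of the outer kinetochore and its corona were higher (median 1.94, range 1.30 to 2.50). Knl1 (chromosome 2, 119047119 to 119105501), the scaffold to which checkpoint proteins bind, had the largest change of the 58 genes. It was at 4.44, 3.82 and 3.61 CPM in flox and at 29.2, 28.5 and 9.61 CPM in Cre. Flox values were within 1 CPM of each other, Cre 3 was well above them, and Cre 1 and Cre 2 were higher still (2.50 ± 0.43, edgeR adjusted p = 0.0248). The subunits of the NDC80 complex, which grips the microtubule end, all passed: Ndc80 at 1.87 ± 0.44 (edgeR adjusted p = 0.0383), Nuf2 at 1.72 ± 0.43 (edgeR adjusted p = 0.0439), Spc24 at 1.94 ± 0.48 (edgeR adjusted p = 0.0423) and Spc25 at 1.30 ± 0.32 (edgeR adjusted p = 0.0413). Cenpe, the kinesin of the corona that carries chromosomes to the spindle equator, was at 8.14, 6.93 and 6.87 CPM in flox and at 35.6, 36.0 and 13.6 CPM in Cre. Its groups were apart (1.96 ± 0.38, edgeR adjusted p = 0.0264), and Cenpf, another large corona protein, changed by 2.21 ± 0.58 (edgeR adjusted p = 0.0479).

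The spindle checkpoint, which delays anaphase until chromosomes are attached, was higher in 4 of 4 genes (median 1.60). Bub1 (chromosome 2, 127801122 to 127831865), a kinetochore kinase, was at 5.41, 3.62 and 3.13 CPM in flox and at 27.7, 23.4 and 8.81 CPM in Cre. Every Cre value was above every flox value (2.30 ± 0.46, edgeR adjusted p = 0.0276). Ttk, the MPS1 kinase at the head of the checkpoint, was at 2.78, 2.70 and 3.28 CPM in flox and at 12.9, 13.5 and 6.41 CPM in Cre. Its flox values were tight and its groups apart (1.90 ± 0.33, edgeR adjusted p = 0.0247). The inhibitors of the anaphase-promoting complex, Bub1b (1.30 ± 0.33, edgeR adjusted p = 0.0451) and Mad2l1 (1.13 ± 0.29, edgeR adjusted p = 0.0454), had smaller changes.

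The 4 genes of the chromosomal passenger complex, which corrects wrong attachments and later steers cytokinesis, were not alike. Birc5, which encodes survivin, was at 6.85, 4.22 and 4.48 CPM in flox and at 23.1, 20.9 and 9.29 CPM in Cre. The groups were apart (1.78 ± 0.39, edgeR adjusted p = 0.0328), and the kinase gene Aurkb also passed (1.59 ± 0.39, edgeR adjusted p = 0.0414). Cdca8, which encodes borealin, was at 11.1, 9.20 and 6.04 CPM in flox and at 23.1, 21.3 and 11.8 CPM in Cre. It did not overlap between the groups, with Cre 3 just above flox 1, and missed the threshold (1.09 ± 0.33, edgeR adjusted p = 0.0670). Incenp, the scaffold of the complex, was at 45.2, 46.3 and 30.3 CPM in flox and at 52.1, 52.5 and 30.3 CPM in Cre. Flox 3 and Cre 3 were level, and the difference was 0.15 ± 0.26 (edgeR adjusted p = 0.721).

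Among the kinesins, motors that move along or take apart microtubules, 8 of 10 were higher (median 1.72, range 1.05 to 2.30). Kif11, the tetrameric motor that pushes spindle poles apart, was at 10.1, 7.67 and 6.82 CPM in flox and at 40.4, 38.9 and 17.0 CPM in Cre. Every Cre value was above the flox values (1.97 ± 0.36, edgeR adjusted p = 0.0250). Kif15, which can stand in for that motor, was at 3.91, 2.56 and 2.21 CPM in flox and at 17.3, 17.7 and 5.97 CPM in Cre. Cre 3 was nearer to flox than to the other Cre libraries, yet above them all (2.24 ± 0.47, edgeR adjusted p = 0.0306). Kif18a, which damps chromosome movements at the equator, was at 1.97, 0.747 and 1.22 CPM in flox and at 8.16, 7.53 and 3.72 CPM in Cre. Groups were apart at these low levels (2.30 ± 0.48, edgeR adjusted p = 0.0301), and the gene shares exons with Mettl15. Kif20a, a motor of the anaphase midzone, was at 10.7, 8.77 and 8.36 CPM in flox and at 39.9, 37.6 and 17.6 CPM in Cre. It too had no overlap (1.77 ± 0.32, edgeR adjusted p = 0.0250), and its exons overlap those of Cdc23 on the opposite strand.

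The chromosome-arm motors Kif4 (2.30 ± 0.53, edgeR adjusted p = 0.0366) and Kif22 (1.67 ± 0.43, edgeR adjusted p = 0.0465) passed, but their counts are uncertain because each has a pseudogene copy, and Kif4 shares exons with Pdzd11. Kif20b (1.51 ± 0.40, edgeR adjusted p = 0.0487) and Kif18b (1.67 ± 0.44, edgeR adjusted p = 0.0498) passed narrowly. Kif2c, the microtubule depolymerase MCAK, was at 5.99, 5.20 and 2.86 CPM in flox and at 19.7, 17.5 and 6.78 CPM in Cre. Its Cre values were all above flox, and it missed the threshold (1.65 ± 0.46, edgeR adjusted p = 0.0576). Kif23, the motor of the centralspindlin complex, was at 7.41, 6.50 and 4.15 CPM in flox and at 15.04, 14.5 and 7.92 CPM in Cre. Here Cre 3 lay just above flox 1 (1.05 ± 0.33, edgeR adjusted p = 0.0753).

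Chromosome condensation genes were higher in 6 of 6 (median 1.33, range 1.12 to 2.13). Ncapg (chromosome 5, 45669919 to 45700546), a subunit of condensin I, was at 6.59, 5.58 and 6.37 CPM in flox and at 33.8, 32.3 and 14.99 CPM in Cre. It had the lowest p of the 58 genes, with tight flox values and no overlap (2.13 ± 0.32, edgeR adjusted p = 0.0237), and it shares exons with Lcorl. The other condensin I subunits moved less. Ncaph was at 10.8, 9.25 and 9.28 CPM in flox and at 28.6, 27.9 and 15.9 CPM in Cre, with the groups apart (1.30 ± 0.25, edgeR adjusted p = 0.0264). Ncapd2 was at 24.1, 18.8 and 18.0 CPM in flox and at 62.1, 61.5 and 30.9 CPM in Cre, also apart (1.34 ± 0.29, edgeR adjusted p = 0.0316). Of the ATPase pair common to condensin I and II, Smc2 was at 30.0, 29.1 and 35.3 CPM in flox and at 92.2, 93.6 and 49.6 CPM in Cre. Flox 3 was its highest flox library, and all Cre values were above it (1.32 ± 0.25, edgeR adjusted p = 0.0264), while its partner Smc4 changed by 1.12 ± 0.28 (edgeR adjusted p = 0.0451).

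Top2a (chromosome 11, 98992943 to 99024189) encodes the topoisomerase that untangles sister chromatids. It was at 49.1, 33.8 and 29.6 CPM in flox and at 193, 166 and 76.9 CPM in Cre. Cre 3 was above flox 1, the highest flox library, and Cre 1 and Cre 2 were far above it (1.96 ± 0.37, edgeR adjusted p = 0.0260).

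At the onset of anaphase, Cdc20 and Ube2c serve the anaphase-promoting complex as activator and ubiquitin-conjugating enzyme, and Espl1 encodes separase, which cuts cohesin. Cdc20 was at 8.04, 5.06 and 5.67 CPM in flox and at 22.2, 23.5 and 11.8 CPM in Cre. Its groups did not overlap (1.62 ± 0.32, edgeR adjusted p = 0.0273), and it shares exons with Elovl1. Espl1 was at 6.49, 4.08 and 3.78 CPM in flox and at 23.1, 17.5 and 10.2 CPM in Cre. These were apart as well (1.82 ± 0.36, edgeR adjusted p = 0.0275), and Ube2c, which shares exons with Tnnc2, changed by 1.72 ± 0.45 (edgeR adjusted p = 0.0478). Pttg1, which encodes securin, the inhibitor of separase, did not follow them. It was at 36.7, 38.7 and 34.5 CPM in flox and at 29.0, 27.9 and 30.2 CPM in Cre. All Cre values were below all flox values by a small margin, and the difference of -0.33 ± 0.10 did not pass (edgeR adjusted p = 0.0732). It was also the only gene of the 58 whose level in Cre 3 was not below that in Cre 1 and Cre 2, at 106% of their mean.

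Midzone and cytokinesis genes were higher in 5 of 5, with the highest median of any role (2.01). Ect2, the exchange factor that activates RhoA at the cell equator, was at 8.61, 5.58 and 5.45 CPM in flox and at 33.6, 40.96 and 13.6 CPM in Cre. Cre 2 was its highest library and Cre 3 was above all flox values (2.17 ± 0.43, edgeR adjusted p = 0.0273). Anln, which encodes the contractile ring protein anillin, was at 15.5, 10.2 and 11.3 CPM in flox and at 63.0, 63.5 and 23.6 CPM in Cre. Groups were apart again (2.01 ± 0.40, edgeR adjusted p = 0.0273). Racgap1, the partner of Kif23 in centralspindlin, was at 15.9, 11.3 and 8.93 CPM in flox and at 44.9, 41.5 and 21.7 CPM in Cre. It did not overlap (1.58 ± 0.34, edgeR adjusted p = 0.0312), and the abscission gene Cep55 (2.07 ± 0.45, edgeR adjusted p = 0.0320) and the microtubule bundler Prc1 (1.56 ± 0.37, edgeR adjusted p = 0.0392), which shares exons with Rccd1, passed too.

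The transcription factor genes Foxm1 and Mybl2, the latter encoding B-MYB, and the proliferation marker Mki67 were all higher (3 of 3). Foxm1 was at 10.6, 7.96 and 8.91 CPM in flox and at 42.0, 40.5 and 18.7 CPM in Cre. No values overlapped (1.88 ± 0.33, edgeR adjusted p = 0.0249), and its exons overlap those of Tex52. Mybl2 (chromosome 2, 163054687 to 163084688), whose upstream stretch printed above holds neither motif, was at 5.54, 5.14 and 5.22 CPM in flox and at 21.3, 15.3 and 10.9 CPM in Cre. Its flox values were nearly equal and Cre 3 was above them (1.58 ± 0.26, edgeR adjusted p = 0.0241). Mki67 (chromosome 7, 135689784 to 135716361), which encodes the chromosome surface protein Ki-67, was at 45.2, 38.6 and 27.7 CPM in flox and at 152, 134 and 69.1 CPM in Cre. Flox 1 was the highest flox library and Cre 3 the lowest Cre library, without overlap (1.67 ± 0.33, edgeR adjusted p = 0.0267).

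Levels of different genes were compared with the deposited FPKM (fragments per kilobase of gene, scaled to the library total), which correct for length. The median over the 58 genes was 1.71 FPKM in flox and 7.22 FPKM in Cre, against 5.58 and 6.16 FPKM over all genes tested. In flox the highest were Pttg1 at 12.1 ± 0.178 FPKM (SD, n = 3) and Incenp at 11.7 ± 2.01 FPKM, both without a call. Next were Top2a at 6.74 ± 1.70 FPKM, Ube2c at 6.43 ± 2.55 FPKM and Smc4 at 5.95 ± 0.188 FPKM. In Cre the order changed, with Top2a highest at 29.4 ± 12.7 FPKM and Ube2c next at 23.9 ± 10.4 FPKM, while Incenp was at 14.7 ± 4.31 FPKM and Pttg1 at 10.7 ± 0.356 FPKM. With these SDs, Top2a and Ube2c did not differ beyond their spread between libraries. Within each Cre library, however, Top2a was above Ube2c (39.6, 33.5 and 15.2 FPKM against 30.0, 29.9 and 12.0 FPKM in Cre 1 to 3). Cenpm was lowest in both groups, at 0.191 ± 0.0671 and 0.681 ± 0.259 FPKM. Kif18a and Knl1 came next from the bottom in both groups, and Knl1, with the largest fold change, was at 0.276 ± 0.0253 FPKM in flox and at 1.76 ± 0.886 FPKM in Cre. At least 1 FPKM was reached by 38 of the 58 genes in all flox libraries and by 53 in all Cre libraries. Within the NDC80 complex, levels in flox were 1.40 ± 0.450 FPKM for Ndc80, 1.73 ± 0.779 FPKM for Nuf2, 1.68 ± 0.725 FPKM for Spc24 and 2.08 ± 0.209 FPKM for Spc25. Spc25 was above Ndc80 in all 3 flox libraries, and their means differed by slightly more than both SDs added, while neighbours in the order of the levels did not differ beyond their spread.

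**Figure D4:**
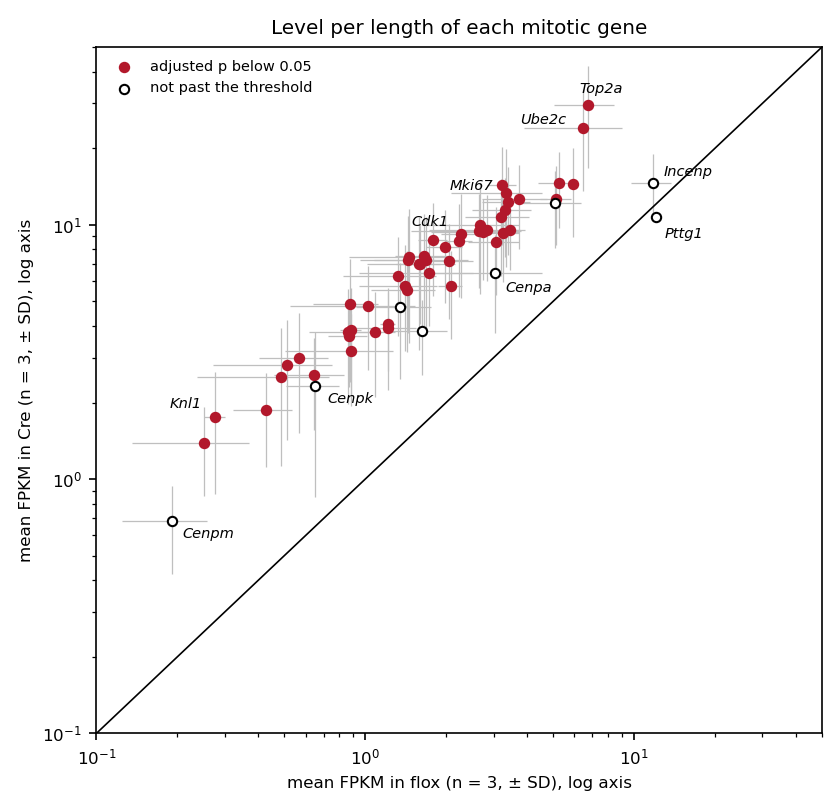
Mean deposited FPKM of each of the 58 genes in flox (horizontal axis) and Cre (vertical axis), both on log scales. Most genes lie above the line of equal level by about the median change, and Pttg1 and Incenp, the highest in flox, lie near the line.

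Other genes of mitosis and DNA replication were counted from lists of 147 genes, all tested. Of these, 61 were higher and 2 lower (median 0.82), where 6.35% of all genes tested were higher and 8.94% lower. Of 25 other spindle and cytokinesis genes, 11 were higher and 1 lower (median 1.44), among the higher ones the centriole kinase gene Plk4 (1.66 ± 0.26, edgeR adjusted p = 0.0237), Ckap2l (2.22 ± 0.41, edgeR adjusted p = 0.0255) and the centriole gene Stil (1.80 ± 0.35, edgeR adjusted p = 0.0267). The lower one was Sass6, which encodes the cartwheel protein of new centrioles, at 34.6, 43.1 and 21.2 CPM in flox and at 16.6, 16.8 and 11.8 CPM in Cre (-1.13 ± 0.28, edgeR adjusted p = 0.0441). All its Cre values were below its flox values, and it shares exons with Trmt13. Of 16 other regulators of mitotic entry and exit, 10 were higher and 0 lower (median 1.39), with Pbk at 2.45 ± 0.39 (edgeR adjusted p = 0.0240), the anaphase-promoting complex inhibitor Fbxo5 at 1.53 ± 0.27 (edgeR adjusted p = 0.0250) and the CDK1-inhibiting kinase gene Pkmyt1 at 1.26 ± 0.25 (edgeR adjusted p = 0.0267). Of 31 other kinetochore and centromere genes, 12 were higher and 0 lower (median 1.05), with the checkpoint ATPase gene Trip13 at 1.80 ± 0.25 (edgeR adjusted p = 0.0237), Kntc1 at 2.02 ± 0.34 (edgeR adjusted p = 0.0241) and Ska3 at 1.76 ± 0.33 (edgeR adjusted p = 0.0255). Exons are shared between Pkmyt1 and Paqr4, between Ska3 and Sap18 and between Ckap2l and Gm14024.

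DNA replication genes were higher in 21 of 31 and lower in 0 (6.35% and 8.94% of all genes tested), with a median of 1.09, or 2.13-fold. Examples were the helicase subunit gene Mcm4 (1.27 ± 0.17), the ligase gene Lig1 (1.09 ± 0.16) and the origin recognition gene Orc1 (1.77 ± 0.27), each at an edgeR adjusted p of 0.0237. Their median Cre 3 level was 69.2% of the mean of Cre 1 and Cre 2, against 44.7% for the 58 genes. Lig1 shares exons with Zswim9, and Orc1 with Gm12743.

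Few genes were called in the 4 remaining lists, which are small, and their counts are to be read beside the 6.35% higher and 8.94% lower of all genes tested. Of 14 subunits of the anaphase-promoting complex, 2 were higher and 0 lower (median 0.03), Cdc16 at 0.44 ± 0.09 (edgeR adjusted p = 0.0311) and Anapc1 at 0.47 ± 0.10 (edgeR adjusted p = 0.0320), while Anapc4 was at 0.39 ± 0.11 (edgeR adjusted p = 0.0580). Of 8 cohesin genes, 1 was higher (median 0.20), Smc3 at 0.56 ± 0.13 (edgeR adjusted p = 0.0392), with Stag1 at 0.35 ± 0.12 and Pds5b at 0.47 ± 0.17 (each edgeR adjusted p = 0.104). Of the 3 subunits found only in condensin II, Ncapd3 was higher at 0.97 ± 0.20 (edgeR adjusted p = 0.0294), Ncaph2 was at 0.17 ± 0.12 (edgeR adjusted p = 0.352), and Ncapg2 was at -0.20 ± 0.42 (edgeR adjusted p = 0.768). Of 19 DREAM and MuvB genes and their partners, 3 were higher and 1 lower (median 0.23): E2f8 at 1.98 ± 0.34 (edgeR adjusted p = 0.0248), Tfdp1 at 0.86 ± 0.15 (edgeR adjusted p = 0.0250) and Rbl1 at 0.39 ± 0.10 (edgeR adjusted p = 0.0447) were higher. The lower one was Nfya, a subunit gene of NF-Y, at 107, 110 and 107 CPM in flox and at 76.1, 81.7 and 83.4 CPM in Cre (-0.43 ± 0.09, edgeR adjusted p = 0.0305). Its groups did not overlap. Scaled to library totals, neither Sass6 nor Nfya passed the test, and the median of all genes was 0.17 in place of 0.01. Ncaph2 shares exons with Sco2 and Tymp, and E2f8 with Gm2788.

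**Figure D5:**
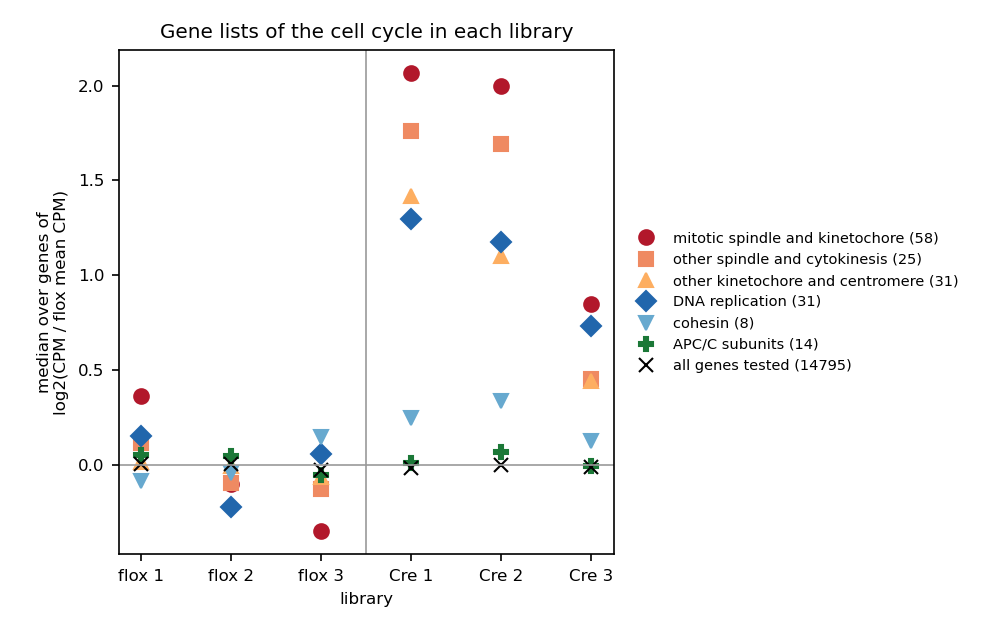
Median log2 level of each gene list relative to its flox mean (vertical axis) in each of the 6 libraries (points, horizontal axis). The 58 genes rise most in Cre 1 and Cre 2 (2.06 and 1.996) and less in Cre 3 (0.85), the anaphase-promoting complex list stays near 0 (0.01, 0.07 and -0.01 in Cre 1 to 3), and cohesin lies slightly above it (0.25, 0.34 and 0.13).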

How the data were processed

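RNA from 6 libraries (3 flox, 3 Cre, grouped and numbered by their titles) was extracted with a column kit, and libraries were made with a SMARTER mRNA kit, per the labels' protocols. The authors deposited raw counts per gene symbol and a table of FPKM values. Among 11560 genes above 50 counts in every library, the deposited FPKM equalled count over library total and 1 length per gene (0 departed by over 1e-06). The submitters' processing notes list the builds GRCm38, mm10 and hg38 without saying how each was used. For aligner, counter, annotation and strand setting, nothing is stated (not given in the sources used here). Hence reads from bases where exons of different genes overlap, on either strand, cannot be told apart. Positions and overlaps are from GENCODE M21 (GRCm38), matched by symbol for all 58 genes. Of these, 16 share exons with another gene, in part predicted or small RNA genes, and 4 have a named pseudogene. Genes are said to share exons where exon positions overlap on either strand, whatever the length of the overlap.

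The count test was edgeR 4.0.16 (R 4.3.3): filterByExpr (minimum count 10, minimum total 15), TMM, quasi-likelihood F-test, two-sided, no covariate, Benjamini-Hochberg over 14795 genes, calls below 0.05. TMM factors were 0.929, 0.905 and 1.01 in flox 1 to 3 and 1.07, 1.06 and 1.04 in Cre 1 to 3. CPM are TMM-normalised. Fold changes are Cre over flox on the log2 scale. Their standard errors are the size of the change divided by the root of F. No permutation test is given, since 3 against 3 libraries cannot go below p = 0.10. The fit was tested on simulated data. Alternatives were other scalings, DESeq2 1.42.0, limma-voom and limma-trend on log2(FPKM + 1) (limma 3.58.1), other filters, each library left out and the replicate number as a block. Over all genes tested, libraries with the same number did not deviate together (correlations of -0.03, -0.10 and -0.06), so the numbers were not taken to pair them. For the 58 genes alone, however, median levels fell from library 1 to 3 in both groups (0.36, -0.10 and -0.35 in flox, 2.06, 1.996 and 0.85 in Cre). With the numbers as a block, 0 of the 58 genes were called.

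Members and gene lists were chosen with earlier results of these data known. By rule, full values go to the 25 members of lowest p and to the member of lowest p in a role without one, and in other lists the 3 genes of lowest p are named. The values of members without a call, and those of Sass6 and Rbl1, were added after they were seen. Promoter letters come from RefSeq (GRCm38.p6). Count depth was 37273142 to 41006722 per library, and 0 per-sample columns were left unused.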

Additional observations from a re-analysis of the deposited data

How the results depend on the processing

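Scaling by RLE factors or library totals, DESeq2, no count filter, a filter of at least 1 CPM in 3 libraries and limma-trend on FPKM (pseudocount 1 or 0.1) gave 44 to 55 of the 58 genes as higher (4.14% to 13.4% of all genes). Fewer passed with limma-voom, which called 11 of them, and 34 of the 147 other genes, higher (3.91% of all genes). With the replicate block, 0 of the 58 and 0 of the 147 other genes passed in either direction, and 0 in the whole table, while 57 of the 58 had an unadjusted p under 0.05 (29.0% of all genes) and the median log2 fold change was 1.70. As to lower calls, among the 58 genes DESeq2 gave 1, Pttg1, where it called 15.9% of all genes lower. Among the 147 others library totals and limma-trend with either pseudocount gave 0, limma-voom, no count filter and limma-trend at a mean of at least 1 FPKM gave 1 each, and DESeq2 gave 5. In these settings other than DESeq2, 5.58% to 8.26% of all genes were called lower. With 1 library left out, edgeR called 0 to 55 of the 58 genes higher and 0 to 1 lower, and 0 to 72 of the 147 others higher and 0 to 6 lower. Of all genes, it then called 0% to 16% higher and 0% to 18.8% lower. DESeq2 called 48 to 55 and 0 to 1 of the 58, and 57 to 90 and 2 to 7 of the others (4 lower without Cre 3). Its shares of all genes were then 5.72% to 21% higher and 8.36% to 21.7% lower. The edgeR counts of 0 came without flox 1, flox 2, Cre 1 or Cre 2. Without flox 3 edgeR called 41 of the 58 higher, and without Cre 3 it called 55. Why the counts differ with the library left out was not tested. Signs turned for genes without a call: Incenp ran from -0.021 without flox 3 to 0.39 without Cre 3 in edgeR (-0.025 without flox 3 in DESeq2). Ncapg2 ran from -0.51 without flox 3 to 0.12 without Cre 3 in edgeR, with 0.047 without flox 2, and DESeq2 gave 0.014 without flox 2 and 0.079 without Cre 3. In all alternatives the median of the 58 genes stayed between 1.32 and 2.08. Depth limits the low genes most: the lowest count among the 58 was 22, in flox 2. A library left out leaves its group with 2 libraries.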
